A study of Mus musculus with 10 samples.

Results

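The genes of MHC class II antigen presentation were followed in the hippocampus of female P301S mice with and without dihydrotestosterone (DHT). Their members were listed by name from what is known of the pathway: Cd74, H2-Aa, H2-Ab1, H2-Eb1, H2-Ea-ps, H2-DMa, H2-DMb1, H2-Oa, Ciita and Ifi30. All 10 were found among the 56884 genes of the count table. All mice carried the PS19 transgene, which places human MAPT with the P301S mutation under the mouse Prnp promoter, on a mixed B6;C3 background, and their ovaries were left intact. At 6 months of age, 5 females received subcutaneous SILASTIC tubing filled along 10 mm with DHT, an androgen that aromatase cannot turn into estrogen, and 5 received empty tubing (void). Treatment lasted 12 weeks, and the hippocampus was taken at 9 to 9.5 months after perfusion with PBS. RNA-seq was made from whole hippocampus with 1 library per mouse, so n = 5 in each group and each library is a separate animal.

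MHC class II molecules are heterodimers of an alpha and a beta chain that display peptides from the endocytic pathway to CD4 T cells. The invariant chain, encoded by Cd74, escorts the new dimer to the endosome, where proteases trim it to a short fragment that H2-DM exchanges for antigenic peptide, a step that H2-DO restrains. Transcription of these genes depends on the coactivator CIITA, which binds a complex of RFX, NF-Y and CREB factors at an X box and a Y box near the start site. In the healthy brain, microglia carry little class II, while macrophages of the meninges and choroid plexus, dendritic cells and B cells carry it at higher levels.

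Promoter sequence is shown to set genes of different role and response side by side: an alpha and a beta chain that were called higher, both chains of H2-DM, of which only the beta chain passed the adjusted p, and the H2-DO alpha chain, which missed it. Of H2-DMa both RefSeq promoters are given. Each run holds the 250 bases before the RefSeq transcription start, 5′ to 3′ on the strand of the gene, from the GRCm38.p6 assembly. They lie on chromosome 17 at chr17:34287824-34288073 on the minus strand for H2-Aa, and on the plus strand at chr17:34305617-34305866 for H2-Eb1, chr17:34152941-34153190 for H2-DMb1, chr17:34122582-34122831 and chr17:34125268-34125517 for H2-DMa, and chr17:34092129-34092378 for H2-Oa. Capitals mark matches to the Y box letters ATTGG, to their longer form CTGATTGG, or to the X box letters CCTNGNNAC, on either strand.
H2-Aa: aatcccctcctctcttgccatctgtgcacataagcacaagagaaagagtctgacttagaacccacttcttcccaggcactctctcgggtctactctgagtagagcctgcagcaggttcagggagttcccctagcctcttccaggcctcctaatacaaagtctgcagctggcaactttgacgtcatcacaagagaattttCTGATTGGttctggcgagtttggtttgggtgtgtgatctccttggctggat
H2-Eb1: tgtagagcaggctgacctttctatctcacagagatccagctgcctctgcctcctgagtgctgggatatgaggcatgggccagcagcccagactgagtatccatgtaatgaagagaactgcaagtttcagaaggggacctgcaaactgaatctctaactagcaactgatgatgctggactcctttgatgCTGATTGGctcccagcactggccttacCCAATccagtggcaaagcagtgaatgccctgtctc
H2-DMb1: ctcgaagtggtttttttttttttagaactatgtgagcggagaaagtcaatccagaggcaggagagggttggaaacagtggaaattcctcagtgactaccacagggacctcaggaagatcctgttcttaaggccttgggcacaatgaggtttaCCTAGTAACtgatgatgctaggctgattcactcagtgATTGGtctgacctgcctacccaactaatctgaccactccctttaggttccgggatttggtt
H2-DMa, first promoter: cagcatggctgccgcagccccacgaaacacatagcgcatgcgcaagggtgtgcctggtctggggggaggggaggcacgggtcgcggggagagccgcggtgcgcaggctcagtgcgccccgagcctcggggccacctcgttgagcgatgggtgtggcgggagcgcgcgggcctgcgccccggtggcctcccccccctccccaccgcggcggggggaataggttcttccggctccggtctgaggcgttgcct
H2-DMa, second promoter: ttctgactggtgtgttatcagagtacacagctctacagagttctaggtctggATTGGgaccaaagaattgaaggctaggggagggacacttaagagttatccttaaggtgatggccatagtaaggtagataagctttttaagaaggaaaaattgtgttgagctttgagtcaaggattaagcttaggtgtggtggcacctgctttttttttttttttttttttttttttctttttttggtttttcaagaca
H2-Oa: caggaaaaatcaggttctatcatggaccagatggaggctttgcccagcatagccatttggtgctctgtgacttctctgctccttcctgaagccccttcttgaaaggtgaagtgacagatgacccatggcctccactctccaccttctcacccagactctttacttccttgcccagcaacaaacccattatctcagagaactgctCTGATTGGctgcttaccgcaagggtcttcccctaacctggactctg
With the last base before the start counted as -1, the first base of CTGATTGG lay at -51 in H2-Aa, -62 in H2-Eb1 and -46 in H2-Oa. ATTGG is part of that longer form, and was found in addition at -61 in H2-DMb1 and, on the reverse strand, at -35 in H2-Eb1. CCTNGNNAC was found at -98 in H2-DMb1. Only exact matches were searched for, so an X or Y box that differs from these letters is not marked. A promoter without a match was thus not shown to lack the box. Of all 32851 promoters of 300 bases in the RefSeq table (250 before and 50 after the start), 4.1% held CTGATTGG, 37.4% held ATTGG and 15.8% held CCTNGNNAC. A RefSeq promoter was matched for 6 of the 10 members. No match to any of these letters was found in the first promoter of H2-DMa or in that of Ifi30, which is not shown, and the second promoter of H2-DMa held ATTGG at -198. Cd74, H2-Ab1, H2-Ea-ps and Ciita are named only.

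Depth lay between 27188854 and 47113661 counts per mouse. The neuron markers summed to 6964 to 7702 CPM (counts scaled to a common library size with edgeR's TMM factors) in void-treated and 6039 to 6986 in DHT-treated females, and 0 of 8 had an adjusted p under 0.05 by edgeR or DESeq2, with 1 at an unadjusted p under 0.05. The choroid plexus markers stood apart, at 118 to 1889 CPM with void and 2173 to 3061 with DHT. The S numbers in the sample labels do not overlap between the groups, and the labels do not say what they stand for. A batch that followed these numbers could not be told apart from the implant. P-values refer to the spread between these mice.

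The classical class II genes and the invariant chain were higher with DHT. Of the 10 members, 9 had enough counts for edgeR's expression filter, and 6 of these 9 were called higher: Cd74, H2-Aa, H2-Ab1, H2-Eb1, H2-Ea-ps and Ifi30. A call required that the p from edgeR's quasi-likelihood test, adjusted over all genes by Benjamini and Hochberg, lay under 0.05 and that the log2 fold change (DHT over void) exceeded 1. Among all 17622 genes tested, 2.17% were called in that direction. A seventh member, H2-DMb1, passed the adjusted p with a smaller fold change, which made 7 of 9 against 5.22% of all genes. H2-Oa and H2-DMa did not pass, and 0 members fell (edgeR, also at an unadjusted p under 0.05, and DESeq2). The median log2 fold change was 2.14 over the 9 members, 1.72 over the 8 without H2-Ea-ps, and 0.01 over all genes tested. The CPM of every DHT-treated mouse lay above that of every void-treated mouse for 5 of the 9 tested members, against 5.39% of all genes. With the choroid plexus or the microglia markers held constant, 0 members were called, in fits that called 0 of all genes.

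**Figure D1:**
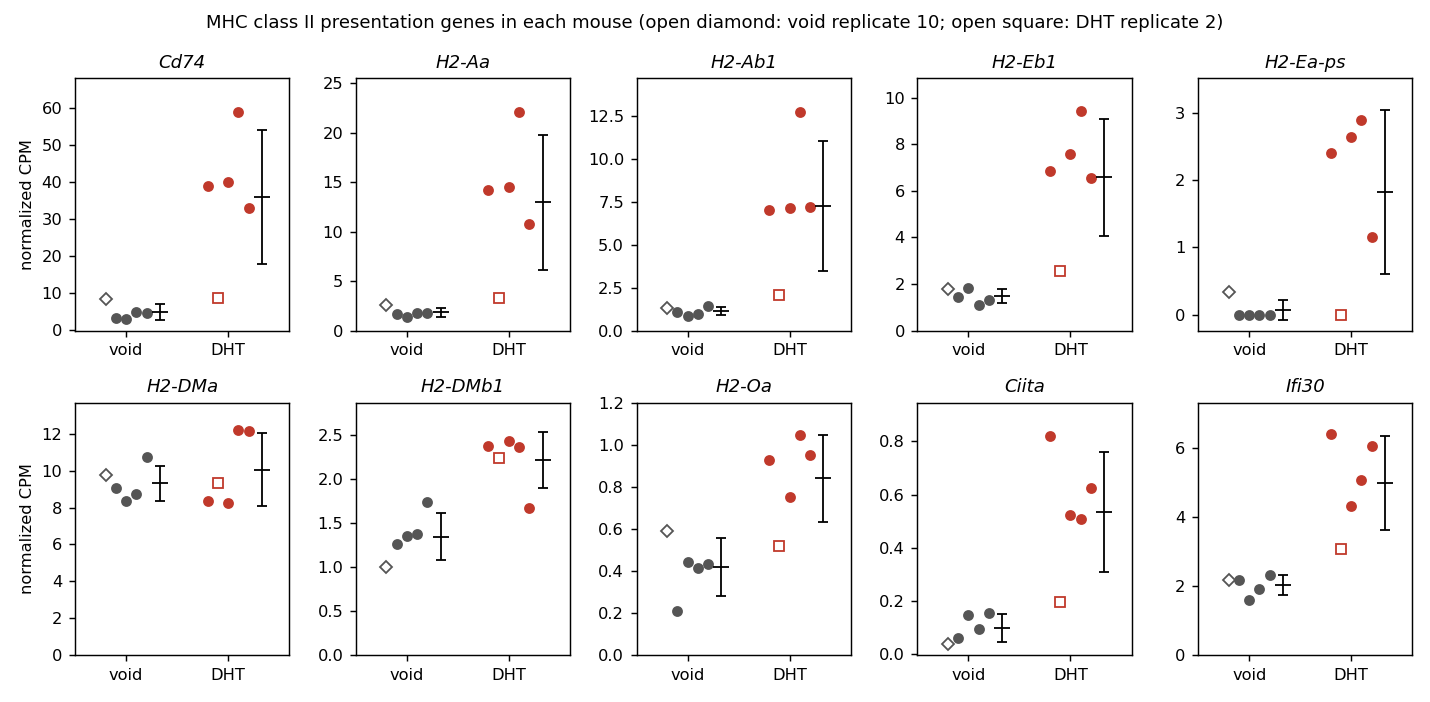
Normalized CPM of each of the 10 class II genes in each mouse, with void in grey, DHT in red, and the group mean and SD (n = 5) as bars. Cd74, H2-Aa, H2-Ab1, H2-Eb1, Ciita and Ifi30 show no overlap between groups, DHT replicate 2 (open square) is the lowest DHT mouse for 8 of the 10 genes, and H2-DMa lies in the same range in both groups.

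In mean CPM per kilobase of exon, though not in CPM alone with void, Cd74 (ENSMUSG00000024610), the invariant chain, was the highest member in both groups. Its CPM was 8.60, 3.30, 3.23, 4.92 and 4.81 in the void-treated females (replicates 10, 11, 4, 5 and 9, an order kept for all genes below) and 38.9, 8.86, 40.1, 59.0 and 33 in the DHT-treated females (replicates 1, 2, 3, 5 and 6). The lowest DHT mouse, replicate 2, was just above the highest void mouse, replicate 10, and the other 4 DHT mice were far above both. The mean rose from 4.97 ± 2.18 CPM (SD, n = 5) to 36.0 ± 18 (SD, n = 5). The log2 fold change was 2.87 ± 0.43 (SE; edgeR adjusted p = 0.00761), the 12th largest upward change of all genes.

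The chains of the classical I-A molecule rose alongside it. H2-Aa (ENSMUSG00000036594), the I-A alpha chain, was at 2.58, 1.71, 1.37, 1.82 and 1.74 CPM with void and at 14.2, 3.31, 14.5, 22.1 and 10.7 with DHT. H2-Ab1 (ENSMUSG00000073421), the I-A beta chain, was at 1.33, 1.08, 0.846, 0.959 and 1.46 CPM with void and at 7.02, 2.10, 7.16, 12.7 and 7.18 with DHT. For both chains no void mouse reached any DHT mouse, and DHT replicate 5 was the highest and replicate 2 the lowest of the DHT mice. H2-Aa averaged 1.84 ± 0.446 CPM (SD, n = 5) against 13 ± 6.82 (SD, n = 5), a log2 fold change of 2.83 ± 0.40 (SE; edgeR adjusted p = 0.00670). H2-Ab1 averaged 1.13 ± 0.255 CPM (SD, n = 5) against 7.24 ± 3.77 (SD, n = 5), a log2 fold change of 2.68 ± 0.38 (SE; edgeR adjusted p = 0.00670).

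The chains of I-A were also set against each other within each mouse. H2-Ab1 had 0.625 ± 0.130 counts per count of H2-Aa with void and 0.574 ± 0.0799 with DHT (SD, n = 5), which differed by less than the SD (p = 0.524, two-sided exact permutation test). The ratio of H2-Aa to Cd74 counts was 0.395 ± 0.0818 with void and 0.360 ± 0.0205 with DHT (SD, n = 5, exact permutation p = 0.492). In the DHT mice this ratio stayed between 0.325 and 0.375 while Cd74 itself ranged from 8.86 to 59.0 CPM. The p-values of the 8 ratios examined were not adjusted for their number.

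The I-E molecule is built from the H2-Eb1 beta chain and an alpha chain encoded at the H2-Ea locus. H2-Eb1 (ENSMUSG00000060586) was at 1.77, 1.44, 1.82, 1.12 and 1.3 CPM with void and at 6.86, 2.57, 7.56, 9.43 and 6.55 with DHT, without overlap. Its mean went from 1.49 ± 0.301 CPM (SD, n = 5) to 6.59 ± 2.51 (SD, n = 5), with a log2 fold change of 2.14 ± 0.29 (SE; edgeR adjusted p = 0.00670). Relative to H2-Aa in the same mouse, H2-Eb1 averaged lower with DHT, at 0.563 ± 0.137 counts per count of H2-Aa against 0.843 ± 0.281 with void (SD, n = 5, exact permutation p = 0.0476, not adjusted). These ratios overlapped between groups. Void replicate 4 was at 1.32, the other void mice at 0.614 to 0.842 and the DHT mice at 0.426 to 0.776.

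H2-Ea-ps (ENSMUSG00000036322) is the I-E alpha gene, which the annotation names a pseudogene because the reference strain, of the b haplotype, does not transcribe it, whereas strains of the k haplotype such as C3H do. Counts were found in 5 of the 10 mice. With void they were 9 in replicate 10 and 0 in each of the other 4 mice, and with DHT they were 88, 0, 126, 97 and 39. Detection thus did not follow treatment mouse by mouse, since 1 void mouse had the transcript and DHT replicate 2 had none. The edgeR fit gave a log2 fold change of 4.98 ± 1.14 (SE; edgeR adjusted p = 0.0263), but a fold change against mice at 0 depends on the prior count. Without void replicate 10, the 1 void mouse with counts, the fitted value was 9.09. The call was lost when any of 7 of the 10 mice was left out (void replicate 10, 11, 4 or 5, or DHT replicate 1, 3 or 5) and under DESeq2 (adjusted p = 0.191). The H2 haplotype of the mice is not given in the sources used here, and its part in this and the other H2 values was not tested.

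**Figure D2:**
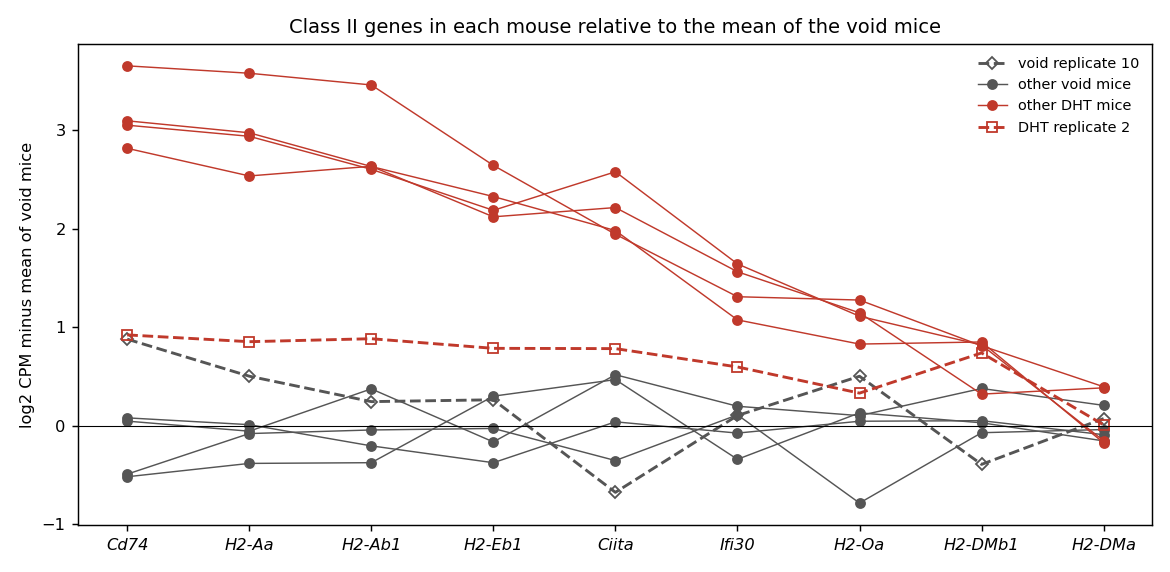
Difference of log2 CPM from the mean of the void mice for 9 class II genes, with 1 line per mouse; H2-Ea-ps is left out because 5 mice are at 0. DHT replicates 1, 3, 5 and 6 run far above the void mice at Cd74, H2-Aa, H2-Ab1 and H2-Eb1, DHT replicate 2 runs between, and all lines meet at H2-DMa.

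DHT replicate 2 stood out across members, and void replicate 10 for some of them. For Cd74, H2-Aa, H2-Ab1 and H2-Eb1, DHT replicate 2 was at 1.78, 1.79, 1.85 and 1.72 times the void mean, while the other 4 DHT mice averaged 8.60, 8.34, 7.52 and 5.10 times that mean. For H2-DMb1, the same mouse did not differ in this way, at 1.67 times the void mean against 1.64 for the other 4. Void replicate 10 was the highest void mouse for 4 of the 10 members. Its Cd74 was at 8.60 CPM against 3.23 to 4.92 in the other void mice, and its H2-Aa at 2.58 against 1.37 to 1.82. For H2-DMb1 and Ciita it was the lowest void mouse, at 0.996 and 0.0369 CPM. Void replicate 9 was the highest void mouse for H2-Ab1, H2-DMa, H2-DMb1, Ciita and Ifi30. Without DHT replicate 2, 8 members were called higher rather than 6, with H2-Oa and Ciita added. Ciita passed the expression filter in that fit and not with all mice, so 10 members were tested there against 9. It also passed the filter and was called in each fit that left out a void mouse.

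The peptide-loading genes had smaller fold changes than the chains they serve. H2-DMa (ENSMUSG00000037649), the alpha chain of the peptide exchanger H2-DM, was at 9.78, 9.05, 8.35, 8.72 and 10.7 CPM with void and at 8.36, 9.35, 8.23, 12.2 and 12.1 with DHT. These ranges overlapped, with means of 9.33 ± 0.946 and 10.1 ± 1.99 CPM (SD, n = 5), and the log2 fold change of 0.11 ± 0.13 (SE) did not pass (edgeR adjusted p = 0.761). H2-DMb1 (ENSMUSG00000079547), its beta chain, was at 0.996, 1.26, 1.35, 1.37 and 1.74 CPM with void and at 2.38, 2.25, 2.43, 2.36 and 1.67 with DHT, so that 4 of the 5 DHT mice lay above every void mouse and replicate 6 did not. Its log2 fold change was 0.72 ± 0.17 (SE; edgeR adjusted p = 0.0303), from 1.34 ± 0.266 to 2.22 ± 0.314 CPM (SD, n = 5), and counting its reads together with those of the near-identical H2-DMb2 left the adjusted p under 0.05. H2-DMb1 was not called in any of these fits, since its log2 fold change stayed under 1, and its adjusted p no longer passed when any of 7 of the mice was left out (void replicate 10, 11, 4 or 5, or DHT replicate 1, 3 or 5).

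H2-Oa (ENSMUSG00000024334) encodes the alpha chain of H2-DO, which restrains H2-DM. It was at 0.590, 0.210, 0.444, 0.415 and 0.434 CPM with void and at 0.929, 0.518, 0.754, 1.05 and 0.953 with DHT, with only DHT replicate 2 inside the void range. The log2 fold change was 1.0 ± 0.27 (SE), and its edgeR adjusted p of 0.0524 missed the threshold. It passed without DHT replicate 2 (edgeR adjusted p = 0.0261), under DESeq2 (adjusted p = 0.0327) and with scaling by library size alone (edgeR adjusted p = 0.0486). H2-Ob, the H2-DO beta chain and no member, was at 1.14, 0.719, 0.529, 0.895 and 0.496 CPM with void and at 2.87, 0.987, 2.53, 2.75 and 2.29 with DHT. It rose by 1.61 ± 0.31 on the log2 scale (SE; edgeR adjusted p = 0.0128), again with DHT replicate 2 alone inside the void range.

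H2-Aa, H2-DMb1 and H2-Oa were each set against H2-DMa in the same mouse, and the ratio of H2-Aa differed most. There were 0.198 ± 0.0418 counts of H2-Aa per count of H2-DMa with void and 1.3 ± 0.652 with DHT (SD, n = 5), without overlap (p = 0.00794, two-sided exact permutation test, the lowest value that 5 mice against 5 allow). DHT replicate 2 was lowest of its group at 0.354. H2-DMb1 had 0.144 ± 0.0256 counts per count of H2-DMa with void and 0.230 ± 0.0657 with DHT (SD, n = 5, exact permutation p = 0.0397, not adjusted), and H2-Oa had 0.0450 ± 0.0142 and 0.0844 ± 0.0203 (SD, n = 5, exact permutation p = 0.0159, not adjusted).

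Ifi30 (ENSMUSG00000031838) encodes the lysosomal thiol reductase GILT, which opens disulfide bonds in antigens. It was at 2.18, 2.19, 1.59, 1.92 and 2.33 CPM with void and at 6.42, 3.08, 4.31, 5.09 and 6.07 with DHT. The groups did not overlap and the spread among DHT mice was narrower than for Cd74, with means of 2.04 ± 0.293 and 5.0 ± 1.35 CPM (SD, n = 5). Its log2 fold change was 1.29 ± 0.20 (SE; edgeR adjusted p = 0.00761).

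Ciita (ENSMUSG00000022504), the coactivator on which class II transcription depends, was scarce. It had 1, 2, 7, 3 and 5 counts with void and 30, 8, 25, 17 and 21 with DHT, so every DHT mouse lay above every void mouse. It did not pass the expression filter and so was not among the 9 members tested. Mean CPM was 0.0992 ± 0.0523 in the void mice and 0.535 ± 0.226 in the DHT mice (SD, n = 5, two-sided exact permutation test of log2 CPM, p = 0.00794). Without the filter, edgeR gave a log2 fold change of 2.31 ± 0.43 (SE; adjusted p = 0.00466), and DESeq2 gave 2.35 (adjusted p = 0.000475).

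Levels between genes were compared as CPM per kilobase of exon, using the lengths of the GENCODE M21 reference. Each length was the union of all annotated exons of the gene, and which transcripts were present was not tested. The order depends on these lengths. Before the division, with void, H2-Aa (1.84 CPM) was above H2-Eb1 (1.49), and H2-DMa (9.33) was above Cd74 (4.97). With void, the order was Cd74 (2.96 ± 1.3), H2-DMa (2.7 ± 0.274), Ifi30 (2.08 ± 0.299), H2-DMb1 (0.799 ± 0.158), H2-Eb1 (0.766 ± 0.155), H2-Aa (0.486 ± 0.118), H2-Ab1 (0.442 ± 0.0992), H2-Oa (0.298 ± 0.0967), H2-Ea-ps (0.0641 ± 0.143) and Ciita (0.0104 ± 0.00549), each SD with n = 5. Neighbours in this order whose SDs did not overlap were H2-DMa and Ifi30, Ifi30 and H2-DMb1, and H2-Eb1 and H2-Aa, and the other neighbours were not separated by their spread. With DHT, Cd74 led at 21.4 ± 10.7 and was followed by Ifi30 (5.09 ± 1.38), H2-Aa (3.42 ± 1.80), H2-Eb1 (3.39 ± 1.29), H2-DMa (2.92 ± 0.577) and H2-Ab1 (2.82 ± 1.47). Cd74 was separated from Ifi30 by its SD, and the SDs of the other neighbours among these 6 overlapped. The mean levels of H2-Aa, H2-Ab1 and H2-Eb1 per kilobase were below that of H2-DMa with void and within its SD with DHT. H2-Ea-ps (1.76 ± 1.18), H2-DMb1 (1.32 ± 0.187), H2-Oa (0.597 ± 0.148) and Ciita (0.0561 ± 0.0237) completed the order.

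In bulk tissue, more cells that carry class II and more class II RNA per cell cannot be told apart. The microglia markers, 12 genes such as P2ry12 and Tmem119, summed to 499 to 571 CPM with void and 682 to 953 with DHT without overlap, and 4 of the 12 rose at an adjusted p under 0.05 by edgeR, 0 of them above the fold limit. Each member was therefore also expressed relative to the mean log2 CPM of these markers in the same mouse. On that scale the DHT mice were higher by 2.15 log2 units for H2-Aa, 2.02 for H2-Ab1, 1.59 for H2-Eb1 and 0.82 for Ifi30, each without overlap (p = 0.00794 for each, two-sided exact permutation test). These 4 of 9 members compare with 0.925% of all genes whose groups did not overlap on this scale. Cd74 was higher by 2.28 with overlap of DHT replicate 2 and void replicate 10 (exact permutation p = 0.0159), and H2-Ea-ps by 3.28 (exact permutation p = 0.0476). The value of H2-Ea-ps depends on the prior count, since 5 mice were at 0, and was 4.49 with a prior count of 0.5. Its exact permutation p lay between 0.0794 and 0.0873 in 8 of the 10 fits that left out a mouse, and passed only without void replicate 10 or DHT replicate 2. H2-Oa (0.52, exact permutation p = 0.0873), H2-DMb1 (0.29, exact permutation p = 0.151) and H2-DMa (-0.33, exact permutation p = 0.135) did not pass. The p-values of these 9 members are not adjusted.

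**Figure D3:**
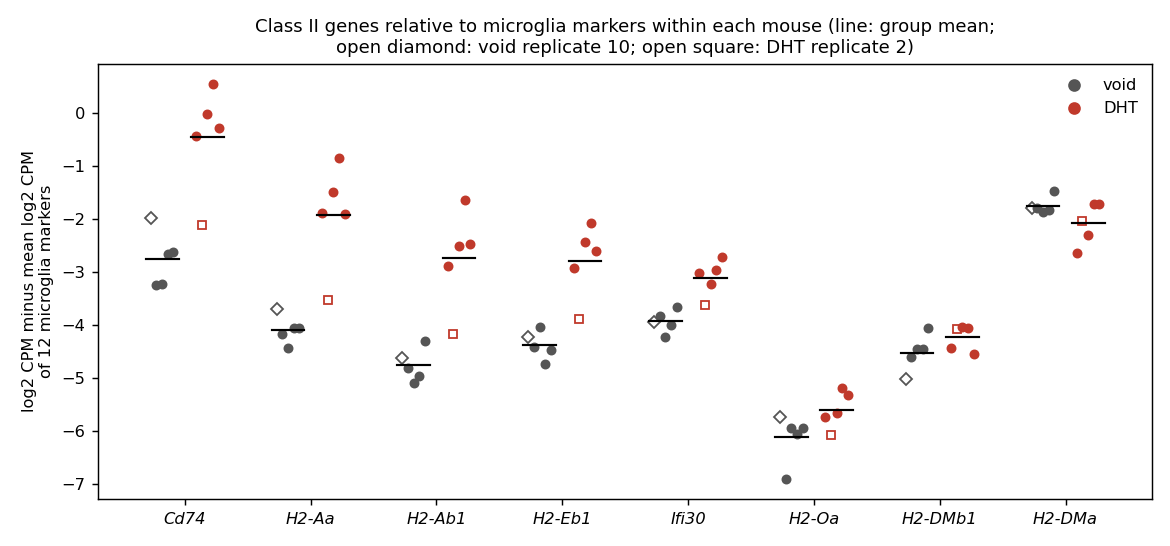
Log2 CPM of 8 class II genes minus the mean log2 CPM of 12 microglia markers in the same mouse, with group means as lines. The groups are apart for H2-Aa, H2-Ab1, H2-Eb1 and Ifi30, while void replicate 10 (open diamond) lies above DHT replicate 2 (open square) for Cd74, and H2-Oa, H2-DMb1 and H2-DMa overlap.

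The mean log2 CPM of the 12 microglia markers was 4.98 ± 0.0713 with void and 5.4 ± 0.177 with DHT, and that of 12 choroid plexus markers was 3.38 ± 1.69 and 6.22 ± 0.296 (SD, n = 5), without overlap of the groups in either score. When the choroid plexus score was held constant in the edgeR fit, 0 of 9 members passed (adjusted p of at least 0.588 by edgeR), and when the microglia score was held constant 0 of 9 passed (adjusted p = 0.991 by edgeR for all 9). Both fits called 0 of the 17622 genes, and at an unadjusted p under 0.05 each left 5 members higher. The log2 fold change of Cd74 was 2.88 with the choroid plexus score and 2.20 with the microglia score.

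Markers of the other cells that carry class II were examined as whole lists. Border macrophage markers (Mrc1, Cd163, Lyve1 and others) summed to 2.82 to 16.6 CPM with void and 6.34 to 14.0 with DHT, and 0 of 9 tested genes had an adjusted p under 0.05 by edgeR (0 of 10 by DESeq2), with 1, Ms4a7, at an unadjusted p under 0.05. With that score in the fit, 5 members were called. Dendritic cell markers summed to 20.3 to 24.5 CPM with void and 15.4 to 19.2 with DHT. Most of that sum was Flt3 (mean 9.48 CPM with void and 7.22 with DHT) and Zbtb46 (9.47 and 8.56), and which cells carried these 2 was not tested. Flt3 was lower with DHT (log2 fold change -0.39, edgeR adjusted p = 0.0144). Xcr1 had 4 counts over the void mice and 1 over the DHT mice, Clec9a 4 and 9, and Ccr7 3 and 1. B cell markers summed to 11.6 to 16.6 CPM with void and 15.5 to 34.4 with DHT, with 0 of 2 tested genes at an adjusted p under 0.05 by edgeR. Both tested genes, Ighm (log2 fold change 0.61) and Pax5 (0.85), had an unadjusted p under 0.05, and DESeq2 passed 1 gene of the list, Fcmr. Over the void and the DHT mice, Fcmr had 10 and 53 counts without overlap of the groups, Cd79b 15 and 40, Cd79a 15 and 15, and Ms4a1, which encodes CD20, 3 and 0. T cell markers were at 1.18 to 2.14 CPM with void and 1.65 to 2.58 with DHT, and 0 of 2 tested genes had an adjusted p under 0.05 by edgeR. By DESeq2 0 passed, and 3 rose at an unadjusted p under 0.05. These were Cd3d (1 and 13 counts over the void and the DHT mice), Cd3g (8 and 29) and Cd8a (15 and 62), without overlap of the groups for Cd3d and Cd3g. Monocyte and neutrophil markers were at 0.575 to 2.02 CPM with void and 1.21 to 2.17 with DHT. The part of any of these cells in the class II values was not tested.

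The pathway around the members was read from 42 further genes, listed by role, of which 32 passed the expression filter. Of these 32, 6 were called higher, against 2.17% of all genes, and 10 rose at an adjusted p under 0.05 by edgeR, against 5.22%, while 0 fell (also at an unadjusted p under 0.05 and by DESeq2), and their median log2 fold change was 0.24.

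**Figure D4:**
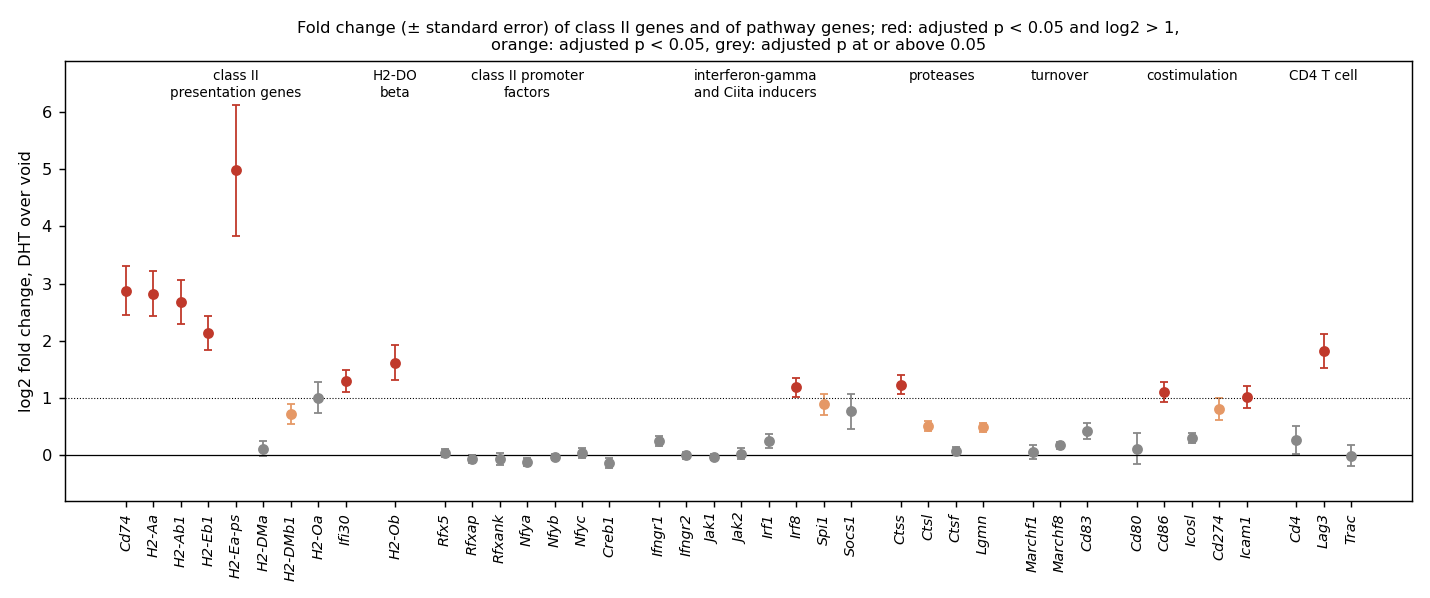
Log2 fold change (DHT over void, edgeR) with its standard error for the 9 tested class II genes and 31 of the tested pathway genes, grouped by role; the dotted line is the fold limit of 1. The class II chains and Cd74 lie at 2.14 or more, the promoter-binding factors lie between -0.14 and 0.03, and H2-Ob, Irf8, Ctss, Cd86, Icam1 and Lag3 are the pathway genes past both limits.

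The constitutive factors that bind the class II promoter did not pass the test. By edgeR and by DESeq2, 0 of 7 (Rfx5, Rfxap, Rfxank, Nfya, Nfyb, Nfyc and Creb1) had an adjusted or an unadjusted p under 0.05, and their edgeR log2 fold changes ran from -0.14 to 0.03, with Rfx5, the DNA-binding subunit of RFX, at 0.03 (edgeR adjusted p = 0.886). Of the 9 tested genes of interferon-gamma signalling and Ciita induction, 5 were higher at an unadjusted p under 0.05 by edgeR. By DESeq2, 3 of 10 rose at an adjusted p under 0.05, and by edgeR 2 of 9 did. Irf8, a transcription factor of the myeloid lineage, went from 4.76 ± 0.466 to 10.8 ± 2.56 CPM (SD, n = 5; log2 fold change 1.18, edgeR adjusted p = 0.00670), and Spi1, which encodes PU.1, changed by 0.88 (edgeR adjusted p = 0.0166). Irf1, a transcription factor induced by interferon, had a log2 fold change of 0.24 (edgeR adjusted p = 0.333). Ifng itself had 1 count over the void mice and 2 over the DHT mice.

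Among the proteases that process the invariant chain and antigens, 3 of 4 rose. Ctss, cathepsin S, which makes the last cuts in the invariant chain in antigen-presenting cells, went from 70.3 ± 9.45 to 165 ± 44.9 CPM (SD, n = 5; log2 fold change 1.23, edgeR adjusted p = 0.00670). Ctsl (0.50, edgeR adjusted p = 0.00992) and Lgmn, asparagine endopeptidase (0.48, edgeR adjusted p = 0.00902), rose less, and Ctsf was at 0.07 (edgeR adjusted p = 0.680). Of the 3 genes that set the surface lifetime of class II, 0 passed by edgeR or DESeq2, and 2 had an unadjusted p under 0.05. The ubiquitin ligases Marchf1 and Marchf8 had log2 fold changes of 0.05 and 0.17, and Cd83, which opposes Marchf1, had 0.42 (edgeR adjusted p = 0.106).

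Of the 5 tested genes of costimulation, 3 rose at an adjusted p under 0.05 by edgeR and 4 at an unadjusted p under 0.05. By DESeq2, 4 of 7 rose at an adjusted p under 0.05. Cd86, a ligand of CD28, changed by 1.1 on the log2 scale (edgeR adjusted p = 0.00761), Icam1, an adhesion ligand, by 1.01 (edgeR adjusted p = 0.0133), and Cd274, which encodes the inhibitory ligand PD-L1, by 0.81 (edgeR adjusted p = 0.0333). Icosl was at 0.30 without overlap of the groups and missed the threshold (edgeR adjusted p = 0.0689). Cd80, the other CD28 ligand, was at 0.11 and did not pass. Of the genes listed for the side of the CD4 T cell, Lag3, an inhibitory receptor that binds class II, rose from 5.44 ± 1.91 to 19 ± 6.41 CPM (SD, n = 5; log2 fold change 1.81, edgeR adjusted p = 0.00815). Which cells carried the Lag3 RNA was not tested. Cd4 averaged 0.293 CPM with void and 0.345 with DHT and did not pass (log2 fold change 0.26, edgeR adjusted p = 0.680). Trac, the constant part of the T cell receptor alpha chain, averaged 0.737 and 0.724 CPM and did not pass either (log2 fold change -0.01). Counts of the CD3 chains were low, at 1 over the void mice and 13 over the DHT mice for Cd3d, 9 and 29 for Cd3e, and 8 and 29 for Cd3g.

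The genes whose pattern across mice was most like that of the members were found from deviations of log2 CPM from the group mean, so that the difference between treatments was left out. Over the 10 mice, which share library and depth for all genes, the 10 highest correlations with the mean deviation of the members ran from 0.89 to 0.94: Atp2c2, Arpc1b, S100a6, Tcirg1, Rsu1, Myo1f, Trem2, Adssl1, C4a and Fermt3. Their log2 fold changes lay between 0.27 and 1.38, and 5 of the 10 had an adjusted p under 0.05 by edgeR. Trem2, a receptor of microglia, had r = 0.91, and Myo1f, a myosin of blood-derived cells and microglia, had r = 0.91. C4a, a complement gene of the H2 region with the near-identical copy C4b, was at 1.84, 0.809, 1.31, 0.831 and 1.09 CPM with void and at 1.91, 0.790, 1.91, 2.27 and 1.79 with DHT, with r = 0.90. Among the members themselves, Cd74 and H2-Aa (0.98 each), H2-Ea-ps (0.97), H2-Ab1 (0.95) and H2-Eb1 (0.90) tracked the common deviation most closely, H2-Oa had 0.74 and Ifi30 0.73, and H2-DMa (0.29) and H2-DMb1 (-0.10) tracked it least. The members form part of the mean they were compared with, and these correlations are descriptions. The deviations were averaged without scaling, and H2-Ea-ps has the widest range, from -4.18 log2 CPM in mice at 0 counts, a value set by the prior count, to 1.56. DHT replicate 2 was among the mice at 0 counts. It was also the lowest DHT mouse for each of the 10 non-member genes, so this mouse weighs heavily in the correlations.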

How the data were processed

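Hippocampal RNA of 10 female P301S mice, 5 void and 5 DHT, was sequenced in bulk. The authors deposited raw counts per gene, made by cleaning reads with HTStream and aligning them with STAR 2.7.10b. The paper names mm10, while the submitters' processing notes name GRCm39 (mm39). The counting tool, annotation release and handling of strand are not given in the sources used here. Symbols and exon lengths were taken from GENCODE M21, and 51948 of 56884 identifiers matched. Groups were read from the sample labels.

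The counts were fitted with edgeR 4.0.16 under R 4.3.3 (TMM, filterByExpr by group, 17622 genes, quasi-likelihood test, Benjamini-Hochberg adjustment). A call needed an adjusted p below 0.05 together with a log2 fold change over 1. Log2 CPM used a prior count of 2. DESeq2 1.42.0, other scalings and filters, marker covariates and leaving out each mouse were alternatives. Exact permutation tests used all 252 splits of the mice. The scripts were tested on simulated data. The members, gene lists and promoter motifs were chosen with earlier results of these data known. The genes named are all members, pathway genes that were called with a few others of the same lists, and the 10 genes of at least 1 CPM most correlated with the members. The results for some genes of the lists are not reported here.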

Additional observations from a re-analysis of the deposited data

Results flagged for a closer look

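For each member, the gap between the highest or lowest mouse of a group and its nearest neighbour was divided by the range of the group and compared with Dixon's critical value for 5 samples (0.71). Of the 20 groups of 5 mice examined, 2 stood out, and chance alone gives about 1 in 20. Void replicate 10 stood apart for H2-Ea-ps, with a gap of 1.0 of the range, since it had 9 counts and the other 4 void mice had 0. DHT replicate 6 stood apart as the lowest DHT mouse for H2-DMb1, with a gap of 0.758 of the range, at 1.67 CPM against 2.25 to 2.43 in the other DHT mice. DHT replicate 2, which was lowest for 8 of the 10 members, did not pass this limit for any of them.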

How the results depend on the processing

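The main analysis called 6 members higher. The count was 0 with the choroid plexus covariate and 0 with the microglia covariate, fits that called 0 of all genes, and lay between 5 and 8 when each mouse was left out. Ciita passed the expression filter in 6 of those 10 fits and was called in all 6, so the number of members tested also changed between them. It was 6 with DESeq2 (Ciita added, H2-Ea-ps lost) and 6 when edgeR took the size factors of DESeq2, 7 with library size alone (H2-Oa added), 7 without the filter (Ciita added), 5 where at least 10 counts were required in every library (7 members tested), 5 with the border macrophage covariate and 7 without the fold limit. Cd74, H2-Aa, H2-Ab1, H2-Eb1 and Ifi30 were called in all 10 fits that left out a mouse, with log2 fold changes of 2.58 to 3.15, 2.5 to 3.07, 2.34 to 2.92, 1.93 to 2.34 and 1.15 to 1.43. H2-DMa, not called in any fit, went from 0.11 to -0.00639 without DHT replicate 5 and lay between -0.00639 and 0.16 over these fits. H2-DMb1 had an adjusted p of 0.0534 without the filter (edgeR). Relative to border macrophage markers in place of microglia markers, Ifi30 was higher by 0.84 (two-sided exact permutation test, p = 0.0873). A prior count of 0.5 in place of 2 changed no call relative to microglia markers but moved H2-Ea-ps from 3.28 to 4.49, and H2-Ea-ps no longer passed in 8 of the 10 fits that left out a mouse. H2-Oa passed on that scale without DHT replicate 2 (0.64, exact permutation p = 0.0238). No paired analysis was possible because replicate number 5 alone occurs in both groups. Few counts limit what can be said of Ciita, with 18 counts over the void mice, and of H2-Ea-ps.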
